A study of Rattus norvegicus with 70 samples.

Results

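The genes described here have 2 or more promoter regions in a survey of DNA methylation in rat liver. A gene was included where its symbol stood on at least 2 autosomal rows of the region tables, on 1 chromosome and strand, with transcript starts at least 1000 bp apart, and where the symbol carried no mark of a duplicated copy. Of 15666 autosomal gene symbols without such a mark, 96 met this rule, and they held 222 regions at different starts among the 17174 rows of the tables. Of these genes, 78 had 2 regions, 14 had 3 and 4 had 4 or more. The rule used positions and names only, so none of the signal values given below chose the genes.

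Methylated fragments of liver DNA were captured with a protein that binds methyl-CpG (MethylMiner kit) and sequenced in single 50 base reads on a SOLiD 4 instrument. Outbred rats of strain Crj:CD(SD)IGS went through a scheme of liver carcinogenesis in which an initiating agent was followed by promotion with phenobarbital. There were 14 groups of 5 libraries, 70 in all, from 7 conditions at 2 times, and each group came from 5 livers per the labels' protocols. In 5 conditions an initiator came first, followed by drinking water with 500 ppm of phenobarbital. These initiators were the DNA-alkylating nitrosamine diethylnitrosamine (DEN, 30 mg/kg in 1 condition and 3 mg/kg in another), 45 mg/kg of thioacetamide, 100 mg/kg of methapyrilene and 1000 mg/kg of acetaminophen. The vehicle group received 0.5% methylcellulose and then the same phenobarbital, and the water group received 0.5% methylcellulose and then plain water. Initiators were given for 1 or 2 weeks, with DEN at 30 mg/kg for 1 week, and were withdrawn for 2 weeks before promotion. Livers were sampled at terminal euthanasia after 6 weeks of promotion, or at the partial hepatectomy that all rats underwent after 1 week of it, so part of the later livers had been removed weeks before. The sources used here do not give sex, age or whether a liver held tumours.

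Many mammalian genes can be transcribed from more than 1 promoter. The start that is used can set the tissue in which the gene is active and the first exon of its mRNA, and at times the first residues of the protein. CpG-rich promoters of active genes are mostly free of methylation, whereas CpG sites inside transcribed gene bodies and in many tissue-restricted promoters carry it. A downstream promoter also lies inside the longer transcripts of its own gene, so both kinds of sequence meet in it.

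Each region covered 5625 bp, 4500 bp before a transcript start and the rest after it, so most of a region lay before its start and the first exon was covered only in part. The deposited signal of a region is its read number scaled to 50 M, and 1 read was worth 0.883 to 1.19 units of signal, depending on the library. Regions with no read carry the value 0.01. In each gene the outermost regions, called upstream and downstream along the gene's own strand, form its promoter pair. Their starts lay a median of 21218 bp apart, between 1203 and 816962 bp. In 73 genes the paired regions did not overlap, and in the other 23 they shared bases and therefore reads, so those are counted apart. The closest starts inside the limit were those of Cdk10 at 1203 bp, Fmo4 at 1260 bp and Stox2 at 1285 bp. Begain at 900 bp, Aqp4 at 916 bp and Etv1 at 937 bp fell just outside, and 87 genes in all had different starts less than 1000 bp apart.

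To show what kind of DNA lies at these starts, RefSeq promoters on build GRCr8 are printed for 7 genes on which the results below turn. Each line gives the 250 bases before the RefSeq start, and capitals mark CpG, the site that is methylated. The sources used here do not name the build of the deposited regions, so a printed start need not be either of the deposited starts of that gene. The first 3 genes had far more signal upstream, the next 3 had far more downstream, and Crem had like signal at both.
Kcnk2 (chr13:103438643-103438892, minus strand, 9 CpG): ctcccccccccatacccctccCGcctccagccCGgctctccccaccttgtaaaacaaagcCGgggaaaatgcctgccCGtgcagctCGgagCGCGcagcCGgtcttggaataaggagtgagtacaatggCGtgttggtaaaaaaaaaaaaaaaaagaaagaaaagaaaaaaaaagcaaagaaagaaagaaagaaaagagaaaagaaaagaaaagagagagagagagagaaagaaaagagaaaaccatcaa
Pparg (chr4:150096808-150097057, plus strand, 13 CpG): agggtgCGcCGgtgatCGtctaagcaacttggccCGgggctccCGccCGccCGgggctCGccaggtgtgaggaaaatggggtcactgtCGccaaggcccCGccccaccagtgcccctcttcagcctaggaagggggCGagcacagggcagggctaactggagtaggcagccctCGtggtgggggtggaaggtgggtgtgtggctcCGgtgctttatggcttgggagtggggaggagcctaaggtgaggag
Prlr (chr2:60861515-60861764, plus strand, 10 CpG): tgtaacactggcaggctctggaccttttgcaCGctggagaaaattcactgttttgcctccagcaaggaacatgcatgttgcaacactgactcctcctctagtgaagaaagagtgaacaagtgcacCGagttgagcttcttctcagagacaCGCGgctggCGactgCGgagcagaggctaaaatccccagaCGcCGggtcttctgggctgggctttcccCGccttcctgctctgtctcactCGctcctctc
Tmprss11d (chr14:22108279-22108528, plus strand, 4 CpG): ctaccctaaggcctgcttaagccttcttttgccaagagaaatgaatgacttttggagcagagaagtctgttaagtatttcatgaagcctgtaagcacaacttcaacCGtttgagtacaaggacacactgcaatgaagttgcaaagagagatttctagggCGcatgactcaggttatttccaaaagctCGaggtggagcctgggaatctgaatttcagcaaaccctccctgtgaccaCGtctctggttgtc
Itsn1 (chr11:44464297-44464546, plus strand, 19 CpG): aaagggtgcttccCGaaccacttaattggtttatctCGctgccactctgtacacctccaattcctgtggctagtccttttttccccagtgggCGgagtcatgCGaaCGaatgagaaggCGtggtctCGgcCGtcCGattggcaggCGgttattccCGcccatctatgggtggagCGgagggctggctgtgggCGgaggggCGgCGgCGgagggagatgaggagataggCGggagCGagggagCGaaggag
Zmynd11 (chr17:65234659-65234908, plus strand, 38 CpG): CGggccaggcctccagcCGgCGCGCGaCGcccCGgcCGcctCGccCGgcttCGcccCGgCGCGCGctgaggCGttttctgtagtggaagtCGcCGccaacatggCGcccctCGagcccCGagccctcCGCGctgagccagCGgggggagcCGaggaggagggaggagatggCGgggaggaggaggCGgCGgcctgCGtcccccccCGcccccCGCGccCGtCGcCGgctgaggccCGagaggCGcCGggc
Crem (chr17:58933816-58934065, plus strand, 17 CpG): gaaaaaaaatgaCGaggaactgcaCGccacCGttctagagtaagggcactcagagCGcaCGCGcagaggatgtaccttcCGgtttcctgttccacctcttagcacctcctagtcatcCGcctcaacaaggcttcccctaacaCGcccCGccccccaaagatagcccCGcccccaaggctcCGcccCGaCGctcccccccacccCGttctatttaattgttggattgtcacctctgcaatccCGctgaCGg

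The printed promoters ranged from 4 CpG in Tmprss11d, a serine protease of airway epithelium, to 38 in Zmynd11, a chromatin reader. A RefSeq promoter was found for 81 of the 96 genes. Over 300 bases, which add 50 bases after the start, they held a median of 10 CpG (0 to 54), against 14 in 17316 named genes with a promoter in that table. At least 15 CpG stood in 33 of the 81 promoters (40.7%), against 48.9% of all named genes. In those 33 genes the median upstream minus downstream difference of log2(signal + 1) was -0.75 and upstream was higher in 13, while in the 48 genes with fewer CpG it was 0.82 and upstream was higher in 33. The median upstream signal was 71.6 with at least 15 CpG and 77.8 with fewer, and the median downstream signal was 119 with at least 15 CpG and 44.2 with fewer. Across the 81 genes the rank correlation of CpG number with the difference was -0.27, given as a description over genes that share all libraries. The 81 include genes whose paired regions overlap, such as Cdk10 at -0.75. They also include genes of 1 transcript placed at several positions, such as Scn3a, and neither kind was set apart here.

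Nearly all of these regions held enough reads to be tested, but some held few. The libraries held 0.933 to 1.80 M reads in regions, with a median of 41 to 69 reads a region, and 0.611 to 5.39% of regions had none. Of the 222 regions, 217 reached a signal of 10 in at least 5 libraries (97.7%, against 96.1% of all autosomal regions), and Cav1 upstream, Nr1d1 upstream, Hnrnpf regions 2 and 3 and Prp2 region 2 did not. The median of the regions' mean signals was 69.7, against 56.1 over all autosomal regions. No cell type marker of the lists used was among the 96 genes, so the label liver could not be checked on them. In 8 genes (Dmbt1, Krt83, Phf11l, Prol1, Prp2, Rsl1d1, Scn3a and Slco1a1) the regions came from 1 transcript placed at several positions, so their values are uncertain. In Cr1l the downstream region rests on a second placement of a transcript that also stands in its upstream region, so its pair is uncertain too. Of the 222 regions, 14 overlapped a region of a different gene.

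In 9 libraries under 1% of regions had no read, and these stood apart in the promoter pairs too. Their median absolute log2 difference over the 73 pairs lay between 0.83 and 1.18, below all of the other 61 libraries, which lay between 1.45 and 1.90. The lower region of a pair had a median signal of 43.1 in those 9 libraries and 33.7 in the others, and the higher region had 95.9 in those 9 and 123 in the others. Of the 9 libraries, 8 were among the 20 numbered 41 to 60 in the titles, and at most 2 belonged to any group. Named changes of pairs between groups that hold such libraries are given with and without them.

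Promoters of the same gene differed widely in signal, and in most pairs without overlap the same region was higher in every library. Signal was not corrected for the number of CpG in a region. The differences are therefore of captured reads, and were not turned into methylation levels. Among the 73 pairs without overlap, the upstream region was higher in 37 and the downstream region in 32 at an adjusted p under 0.05 (limma over all 70 libraries, Benjamini-Hochberg). These 69 are 94.5% of the pairs, but the test also called 94.6% of all 15481 pairs it was fitted on and 94.6% of the 15103 pairs of neighbouring regions that belong to different genes and do not overlap. With 70 libraries almost any pair of regions was told apart, so the count says nothing particular about promoters of 1 gene. The size of the difference is the more informative measure: its median absolute value was 1.65 (log2) in the gene pairs and 1.33 in the neighbouring pairs of different genes. With starts within 100000 bp the medians were 1.63 in 56 gene pairs and 1.26 in 7520 pairs of neighbours. The difference reached 2, a 4-fold ratio, in 27 gene pairs (36.99%) and in 32.2% of neighbouring pairs. It was under 0.5 in 11 gene pairs. The 27 include Scn3a, Dmbt1, Phf11l, Slco1a1, Prp2 and Krt83, which are among the 8 genes of 1 transcript placed at several positions. Of those 8, Rsl1d1 and Prol1 did not reach 2. Sizes without the 8 genes were not computed, so their part in the excess over neighbours was not tested. The signed median was 0.27 in gene pairs and 0.01 in neighbours.

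**Figure D1:**
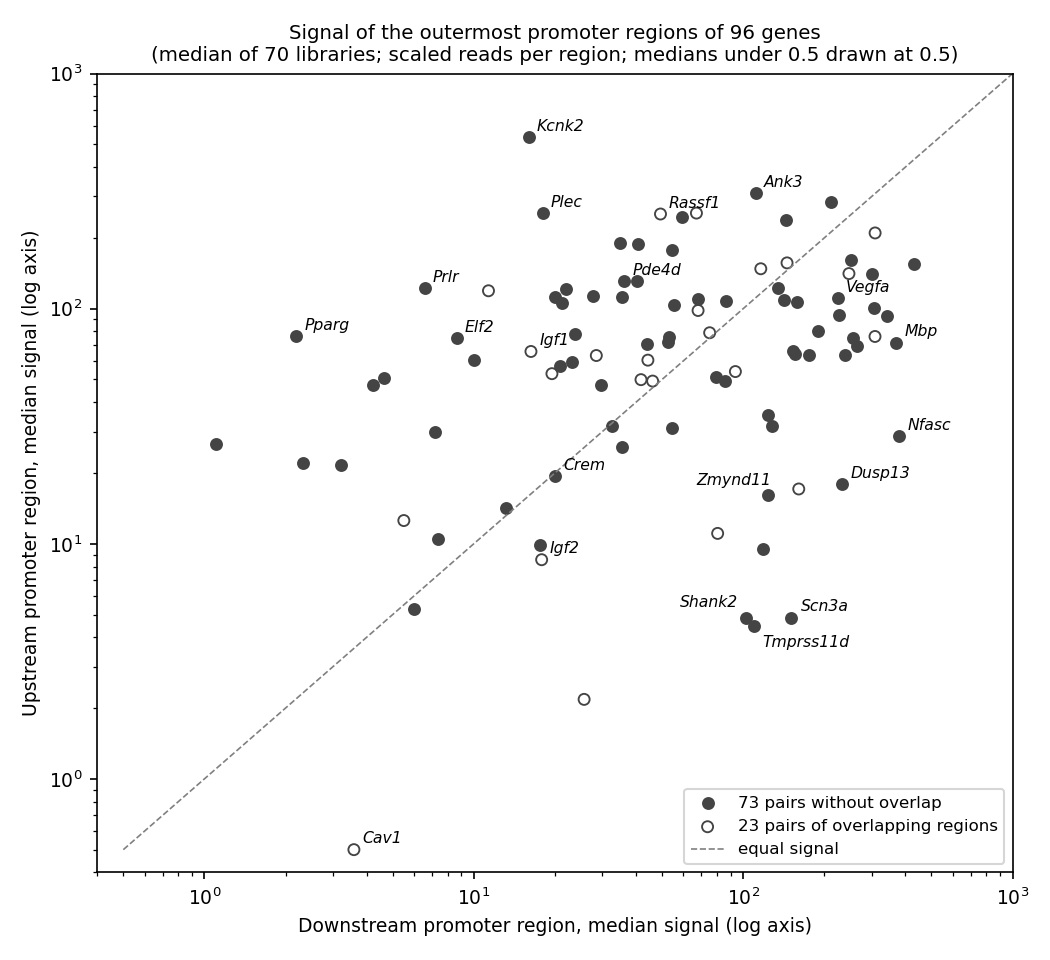
Median signal of the upstream region (vertical axis) against that of the downstream region (horizontal axis) over 70 libraries for 96 genes, both on log axes in scaled reads per region, with filled points for the 73 pairs without overlap and open points for the 23 that overlap. The points spread far to both sides of the dashed line of equal signal, with Kcnk2 at 537 against 15.99 on the upstream side and Nfasc at 28.8 against 379 on the downstream side.

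In 44 of the 73 pairs the same region was higher in all 70 libraries, upstream in 22 and downstream in 22. In 62 pairs the means of all 14 groups pointed the same way (33 upstream, 29 downstream), and in 11 they pointed either way. These counts were not compared with neighbouring pairs of different genes. Whether such consistency is particular to promoters of the same gene was therefore not tested. Of the 4 pairs that did not pass, Crem, Tbc1d14 and Cr1l had differences between -0.06 and 0.08. Among the 23 overlapping pairs, 22 passed the test, 13 with the upstream and 9 with the downstream region higher.

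Among receptors and channels, Kcnk2, which encodes the background potassium channel TREK-1 and gave the largest upstream difference of the 73 pairs, had an upstream median of 537 (207 to 721) and a downstream median of 15.99 (3.12 to 50.4) over 70 libraries, a ratio of 33.6. Its regions, on the minus strand of chromosome 13, began at 105573113 and 105515662 in the files' coordinates. The upstream region was higher in 70 of 70 libraries and the ranges did not overlap, with a log2 difference of 5.01 ± 0.12 (SE, adjusted p = 2.3e-44) that lay between 4.31 and 5.48 in the 14 groups. Prlr, the prolactin receptor, for which a liver-specific promoter is known in rat, had 123 upstream (64.1 to 170) and 6.56 downstream (0.01 to 37.5), a difference of 3.91 ± 0.14 (adjusted p = 8.5e-36). Accn1, an acid-sensing channel subunit that RefSeq names Asic2, had 122 upstream (75.5 to 190) and 21.9 downstream (5.07 to 43.2), with starts 816962 bp apart, the widest of all. Scn3a, a voltage-gated sodium channel, ran the other way with 4.85 upstream (0.01 to 31.996) and 150 downstream (78.8 to 224), but its regions came from a repeated transcript.

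Nuclear receptor signalling was represented by Pparg, the master regulator of fat cell formation, whose mRNA classes arise from separate promoters. Its upstream region had a median of 76.6 (48.1 to 135) and its downstream region 2.19 (0.01 to 18.9), close to the worth of 2 reads. The difference was 4.68 ± 0.16 (SE, adjusted p = 1.2e-36) and upstream was higher in 70 of 70 libraries. In the vehicle group at terminal euthanasia the 5 upstream values were 64.4, 89.2, 85.2, 104 and 87.0, against 116, 77.5, 84.1, 61.3 and 57.2 in the water group. The downstream values of the same vehicle livers were 0.01, 3.57, 4.05, 0.01 and 12.6, against 1.02, 3.37, 2.00, 1.16 and 3.30 in the water group. The groups overlapped in both regions, and upstream stood above downstream in each of these 10 livers. Ncoa4, a nuclear receptor coactivator and ferritin cargo receptor, had 112 upstream (60.7 to 203) and 20.1 downstream (3.28 to 51.5), a difference of 2.43 ± 0.11 (adjusted p = 1.4e-29).

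Genes of cell junctions, synapses and myelin stood on both sides. Plec, the cytolinker plectin, had 255 upstream (112 to 401) and 18.02 downstream (2.04 to 58.6), a difference of 3.80 ± 0.10 (SE, adjusted p = 1.2e-42). Ank3, the membrane adaptor ankyrin-G, had 310 upstream (175 to 451) and 111 downstream (69.3 to 179), higher upstream in 70 of 70 libraries with a difference of 1.44. Toward the downstream region, Nfasc, the adhesion protein neurofascin, had 28.8 upstream (12.4 to 54.7) and 379 downstream (153 to 554), a difference of -3.59 ± 0.06 (adjusted p = 1.8e-51) with a narrow span over the groups of -3.87 to -3.18. Shank2, a scaffold of the postsynaptic density, had 4.84 upstream (0.01 to 33.5) and 103 downstream (60.7 to 152). Itsn1, the endocytic scaffold intersectin, had 9.505 upstream (0.01 to 40.5) and 119 downstream (72.9 to 233), a difference of -3.60 ± 0.13 (adjusted p = 3.2e-35). Mbp, myelin basic protein, had 71.6 upstream and 369 downstream (-2.28), and Rims2, a presynaptic scaffold, had 31.7 upstream and 128 downstream (-2.02). In Nfasc, Shank2, Itsn1, Mbp and Rims2 the downstream region was higher in 70 of 70 libraries.

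Among regulators of transcription and signalling, Elf2, an ETS-family factor, had 74.7 upstream (44.5 to 130) and 8.64 downstream (1.78 to 38.2), a difference of 2.87 ± 0.11 (SE, adjusted p = 3.7e-33). Zmynd11, which binds a methylated histone mark on transcribed genes, had 16.1 upstream (2.05 to 69.8) and 123 downstream (77.8 to 169), a difference of -2.87 ± 0.10 (adjusted p = 1.1e-35). Pde11a, a cyclic nucleotide phosphodiesterase, had 190 upstream (105 to 254) and 34.9 downstream (18.5 to 71.5), a difference of 2.39. Dusp13 had 17.99 upstream (5.21 to 64.1) and 233 downstream (106 to 319), the difference being -3.64, but its transcripts belong to 2 RefSeq genes, Dusp13a and Dusp13b, both dual-specificity phosphatases. Its promoter pair is therefore a pair of adjacent genes under 1 older symbol.

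At the cell surface, Tmprss11d had 4.47 upstream (0.01 to 27.9) and 110 downstream (56.1 to 194), and downstream was higher in 70 of 70 libraries (difference -4.45 ± 0.18, SE, adjusted p = 2.1e-32). Slc9a2, a sodium-proton exchanger of epithelia, had 69.1 upstream (35.04 to 96.1) and 266 downstream (154 to 374), a difference of -1.96 ± 0.04 (adjusted p = 8.3e-47). Prom1, the stem cell marker prominin-1 (CD133), had 106 upstream (58.3 to 186) and 21.2 downstream (7.19 to 59.7), a difference of 2.22. Slco1a1, an organic anion transporter of hepatocytes, had 60.6 upstream (43.3 to 91.0) and 10.1 downstream (0.01 to 32.97), but its pair came from a repeated transcript. Without the 9 libraries described above, every named difference of these 20 genes was larger, with Kcnk2 at 5.28 and Tmprss11d at -4.78.

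**Figure D2:**
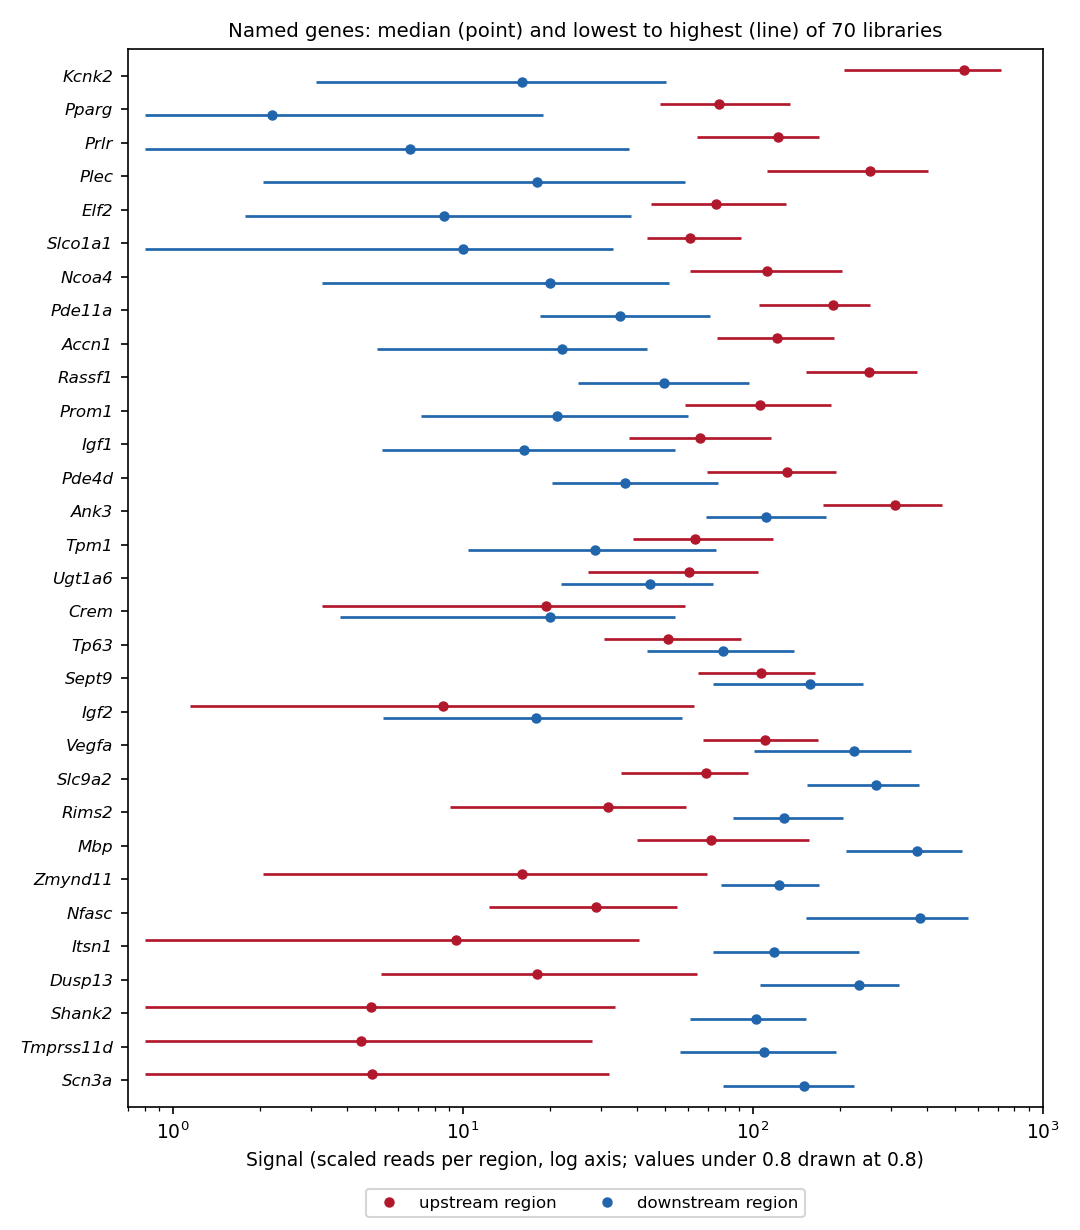
Median (points) and lowest to highest signal (lines) over 70 libraries of the upstream (red) and downstream (blue) region of the named genes, on a log axis in scaled reads per region. The lines do not overlap for Kcnk2, Pparg and Nfasc, and they cover each other for Crem, whose medians were 19.4 upstream and 20.04 downstream.

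Genes known for alternative promoters were taken from a list of 67, of which 62 stood in the tables. Of these, 13 were among the 96 genes. In 8 of the 13 the upstream region was higher, in 4 the downstream region, and Crem did not pass. The median of their signed differences was 1.25, beside 0.27 for the 73 pairs, and that of their absolute differences was 1.25, beside 1.65 for the 73 pairs. Of the 13, 5 have overlapping regions, while the 73 pairs have none.

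Rassf1, a tumour suppressor whose isoforms A and C start at separate CpG islands in humans, had 253 upstream (152 to 370) and 49.3 downstream (24.998 to 96.9), a difference of 2.32 ± 0.05 (SE, adjusted p = 2.0e-45). The regions share 1696 bp, and upstream was higher in 70 of 70 libraries. Igf1, the liver's main secreted growth factor, had 65.8 upstream (37.4 to 116) and 16.3 downstream (5.26 to 53.8), and its regions share 3473 bp. Igf2, the imprinted fetal growth factor, was low throughout, with 8.55 upstream (1.14 to 62.9) and 17.9 downstream (5.30 to 57.2), a difference of -0.86. Vegfa, the angiogenic factor, had 111 upstream (67.7 to 168) and 224 downstream (101 to 352), a difference of -1.03.

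Pde4d, a cyclic AMP phosphodiesterase with many start sites, had 131 upstream (69.9 to 193) and 36.2 downstream (20.4 to 76.0), a difference of 1.79. Tpm1, tropomyosin, had 63.2 upstream and 28.5 downstream (1.25). Tp63, whose upstream promoter gives the transactivating form of the p53 relative p63 and whose internal promoter gives the truncated form, had 51.1 upstream (30.7 to 90.9) and 79.0 downstream (43.1 to 139), a difference of -0.54. Sept9, a cytoskeletal septin, had 107 upstream and 158 downstream (-0.60). Crem, a cyclic AMP responsive factor whose internal promoter gives the early repressor ICER, had 19.4 upstream (3.26 to 58.4) and 20.04 downstream (3.76 to 53.8). Its difference of -0.06 ± 0.10 (adjusted p = 0.58) changed sign between groups, with group means between -0.81 and 0.77.

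Other lists touched few of these genes. Of 38 genes of the phenobarbital and xenobiotic response, 2 were included: Ephx1, microsomal epoxide hydrolase, at 9.92 upstream and 17.6 downstream (-0.92), and Ugt1a6, a glucuronosyltransferase, at 60.4 upstream and 44.3 downstream (0.45, regions sharing 1916 bp). Lists of liver metabolism, imprinted genes and developmental transcription factors each held 1 gene (Igf1, Igf2 and Tp63), and those of tumour suppressors and of synapse genes held 2 each (Rassf1 with Tp63, and Shank2 with Ank3).

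In the 18 genes with 3 or more regions the signal did not follow a common course along the gene. The highest region was the first in 9 genes, the last in 8 and an inner one in Shank2 alone, while the lowest was an inner region in 8 genes, the first in 5 and the last in 5. The median log2 distance between highest and lowest was 2.19, and it exceeded 2 in 9 genes. Bcl2l1, Cdk10, Hnrnpf, Nat1, Sgk1 and Zfp385a have only 2 starts at least 1000 bp apart, so some of their regions share most bases. Regions 1 and 2 of Cdk10 start 1 bp apart and had the same median, 141. All such regions were counted as separate here. Plec, with 11 regions over 35197 bp, had medians of 255 and 253 at its first starts and 69.5, 72.0 and 75.3 in the next group of starts. Its medians then were 154, 126, 125, 120 and 83.7, and 18.02 at the last start. Most neighbouring regions of Plec overlap and share reads. Its outermost regions do not, and the first median was 14.1 times the last.

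Shank2 had medians of 4.84, 362, 104 and 103, so its second region, 186507 bp after the first, was the highest in 70 of 70 libraries. Nfasc had 28.8, 272 and 379. Pparg had 76.6 and 65.1 at its first starts, and only its last region was low. Pde4d had 131 at its first start and 31.1, 41.4, 43.4 and 36.2 at the others, and the first was the highest in 70 of 70 libraries. Oxr1, an oxidation resistance gene, had 25.8, 3.12 and 35.5, with the dip between. Nat1, an arylamine acetyltransferase, had 59.5, 8.47 and 23.2, and Cnr2, the cannabinoid receptor of immune cells, had 63.6, 135 and 238. Cav1, the caveolae protein, has overlapping regions 1318 bp apart and had no read upstream in any of the 70 libraries, with 3.59 downstream (0.01 to 15.8), so no ratio is given.

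**Figure D3:**
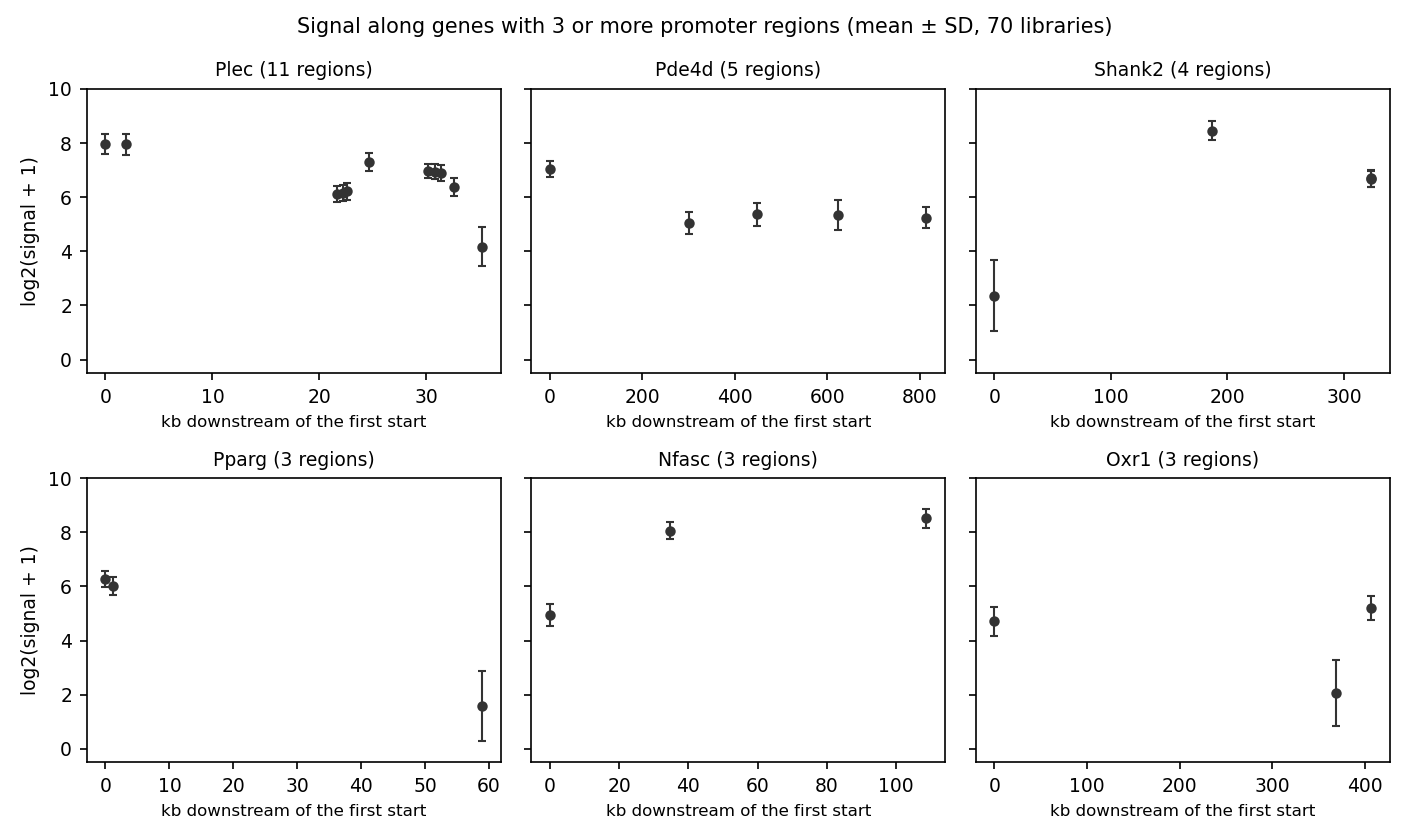
Mean log2(signal + 1) with SD over 70 libraries (vertical axis) against the distance of each start from the gene's first start in kb (horizontal axis) for 6 genes with 3 or more regions. Signal falls at the last start of Plec and Pparg, rises after the first start of Shank2 and Nfasc, and dips between the outer starts of Oxr1.

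Signal at the promoters of a gene varied together only weakly from library to library. Over 70 libraries the Pearson correlation of log2(signal + 1) between the regions of a pair had a median of 0.17 over 73 pairs, and 52 were positive. The highest were those of Cabp1, a neuronal calcium-binding protein (0.63), Tsc22d1, a TGF-beta induced regulator (0.56), and Akap12, a protein kinase A anchor (0.55). The lowest were those of Kcnk2 (-0.51), Ncoa4 (-0.37) and Tmprss11d (-0.33). Without the 9 libraries the same pairs had 0.40, 0.42 and 0.33 for Cabp1, Tsc22d1 and Akap12, and -0.10, -0.25 and -0.12 for Kcnk2, Ncoa4 and Tmprss11d, and the range over the 73 pairs narrowed to between -0.25 and 0.48. Those libraries had a mean Kcnk2 signal of 319 upstream and 35.01 downstream, against 558 upstream and 14.7 downstream in the others. The extremes of both signs were thus smaller without them. Over all 70 libraries, the 23 pairs whose lower region had a median signal under 20 had a median correlation of -0.11, and 9 were positive. The other 50 pairs had a median of 0.24, and 43 were positive. Within groups the median correlation was 0.18 for the gene pairs and 0.13 for neighbours of different genes. All points share library, depth and scaling, so these are descriptions without a test. In overlapping pairs, which share reads, the median was 0.37 and the highest 0.94 in Bcl2l1.

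Phenobarbital, the initiators and time were then compared for their effect on the balance of the promoters, taken as the change of upstream minus downstream between groups. Over the 14 groups together, the F test called none of the 73 pairs (limma, 0% of all 15481 pairs), with an unadjusted p under 0.05 in 3 pairs (4.11%, against 4.77% of all pairs) and a lowest adjusted p of 0.93. The median SD within groups was 0.53 and the median span of the group means was 0.80 (log2).

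At terminal euthanasia against partial hepatectomy, limma called none of the 73 pairs, beside 0.0258% of all pairs, and 2 had an unadjusted p under 0.05 (2.74%, against 5.85% of all pairs). Galnt9, a mucin-type glycosyltransferase, had the smallest p among pairs whose difference was lower at terminal euthanasia (-0.23, adjusted p = 0.80, and -0.25 without the 9 libraries). Its downstream region was higher in 70 of 70 libraries, with medians of 63.3 upstream and 175 downstream.

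**Figure D4:**
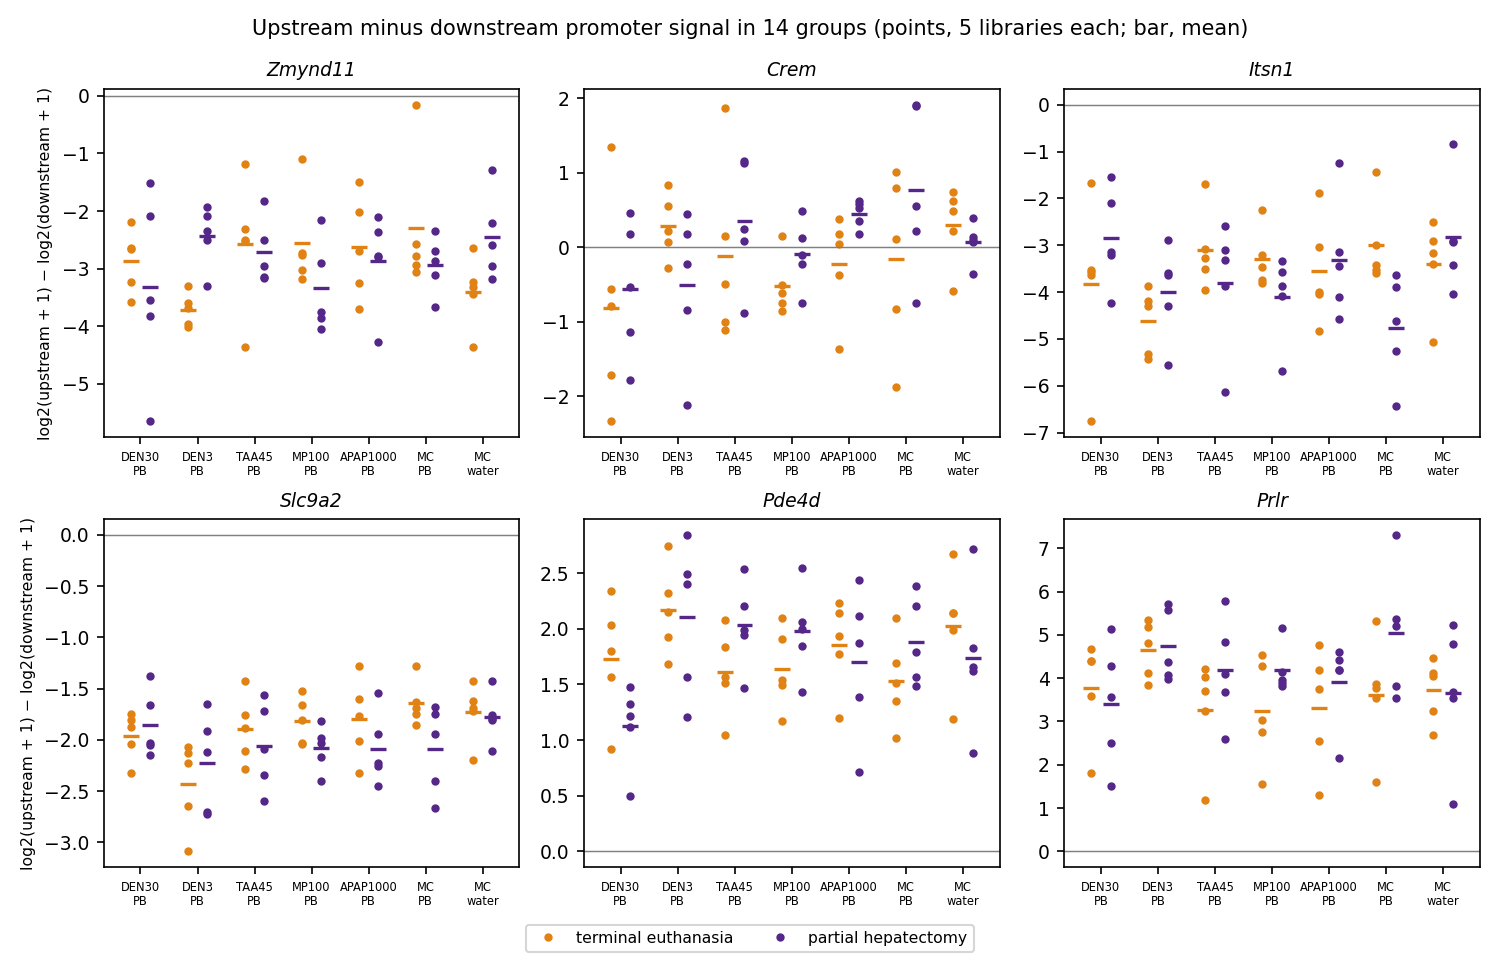
Difference of log2(signal + 1), upstream minus downstream, in each library (points, 5 per group) and its group mean (bars) for 6 genes in the 7 conditions at terminal euthanasia (orange) and partial hepatectomy (violet). Slc9a2 lies below 0 and Prlr above 0 in every group, Crem lies on both sides, and the 2 times overlap in all 6 genes.

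Phenobarbital against water addresses promotion alone. At partial hepatectomy limma called none of the 73 pairs (0% of all pairs), and 5 had an unadjusted p under 0.05 (6.85%, against 6.91% of all pairs). Itsn1 had the smallest p, with a change of -1.93 ± 0.69 (SE, adjusted p = 0.65). Its upstream signal was 3.16, 8.89, 0.01, 6.54 and 4.70 in the vehicle and phenobarbital livers, against 12.998, 11.3, 8.61, 4.21 and 40.5 in the water livers. The groups overlapped, and the highest value belonged to 1 of the 9 libraries with few empty regions. Without those libraries the change was -1.44. The downstream signal was 158, 121, 85.8, 110 and 139 in the phenobarbital livers, against 106, 91.4, 102, 84.1 and 72.9 in the water livers. Prlr moved the other way, by 1.38 (adjusted p = 0.74), and by 0.74 without those libraries.

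At terminal euthanasia phenobarbital against water gave no call among the 73 pairs (limma, beside 0.00646% of all pairs) and 3 unadjusted p under 0.05 (4.11%, against 5.18% of all pairs). Zmynd11 changed by 1.10 ± 0.54 (SE, adjusted p = 0.94), and its upstream values were 11.9, 14.3, 24.3, 17.3 and 69.8 in the phenobarbital livers, against 15.3, 4.49, 19.02, 9.25 and 12.1 in the water livers. The value of 69.8 came from a library with few empty regions, and without such libraries the change was 0.56. Slco1a1, from a repeated transcript, changed by -1.14 (adjusted p = 0.94), and by -0.83 without such libraries.

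Each initiator was set against vehicle with both groups on phenobarbital, so all of these comparisons share the 5 vehicle livers of their time. DEN at 30 mg/kg gave no call at partial hepatectomy (limma, 0% of all pairs), with 8 unadjusted p under 0.05 (10.96%, against 8.85% of all pairs), nor at terminal euthanasia (beside 0.00646% of all pairs), with 1 (1.37%, against 4.57%). Itsn1 changed by 1.92 ± 0.69 at partial hepatectomy (SE, adjusted p = 0.48), with upstream values of 12.7, 12.6, 36.4, 25.1 and 7.19 in DEN livers, against the vehicle values given above. The groups overlapped by 1 liver of each. The values 36.4 and 25.1 came from libraries with few empty regions, and without those the change was 1.23 (adjusted p = 0.88). The mean Itsn1 difference of the vehicle livers, -4.76, was the lowest of the 14 groups. The phenobarbital change and the DEN change of Itsn1 at partial hepatectomy both rest on those same 5 livers. Crem changed by -1.33 ± 0.53 (adjusted p = 0.50). Its downstream region had 29.6, 24.2, 27.8, 34.1 and 32.9 in DEN livers, against 17.9, 13.3, 6.36, 15.3 and 3.76 in vehicle livers. All DEN livers lay above all vehicle livers there, while its upstream region overlapped, with 20.1, 6.31, 31.6, 47.2 and 14.4 in DEN livers against 21.1, 20.003, 26.5, 8.73 and 16.9 in vehicle livers. Without the libraries with few empty regions the Crem change was -1.92 (adjusted p = 0.54). The mean Crem difference of these vehicle livers, 0.77, was the highest of the 14 groups. The Crem changes with DEN at 30 and at 3 mg/kg both rest on those same 5 livers.

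At terminal euthanasia Fga, a fibrinogen chain secreted by liver, had the largest named change with DEN at 30 mg/kg, 1.55 ± 0.79 (SE, adjusted p = 1.00), and Ptprr, a receptor-type tyrosine phosphatase, changed by -0.57 (adjusted p = 1.00). The mean Fga signal was 58.6 upstream and 7.21 downstream in DEN livers, against 44.9 upstream and 11.3 downstream in vehicle livers. Without the libraries with few empty regions Fga changed by 1.69 and Ptprr by -0.65.

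DEN at 3 mg/kg gave no call at either time (limma, 0% of all pairs at both), with 3 unadjusted p under 0.05 at partial hepatectomy (4.11%, against 3.89% of all pairs) and 7 at terminal euthanasia (9.59%, against 8.40% of all pairs). At partial hepatectomy Crem changed by -1.28 ± 0.53 (SE, adjusted p = 1.00), with downstream values of 33.9, 26.1, 47.98, 12.2 and 21.997 in DEN livers against the same vehicle livers as above. At terminal euthanasia Slc9a2 changed by -0.79 ± 0.23 (adjusted p = 0.45). Its downstream signal was 266, 275, 299, 306 and 374 in DEN livers, against 267, 247, 266, 231 and 154 in vehicle livers, and its upstream signal was 41.7, 64.7, 67.5, 35.04 and 79.3 in DEN livers, against 82.3, 67.8, 85.2, 68.01 and 62.9 in vehicle livers. Both regions overlapped between the groups. St6gal1, a sialyltransferase with a liver-specific promoter, changed by 0.88 ± 0.29 (adjusted p = 0.45), from upstream values of 63.5, 88.2, 91.0, 97.9 and 92.3 in DEN livers, against 64.4, 54.7, 43.6, 56.5 and 65.2 in vehicle livers, which overlapped by 1 liver. Without the vehicle library with few empty regions, Slc9a2 changed by -0.70 and St6gal1 by 0.79.

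DEN at 30 mg/kg against 3 mg/kg gave no call at either time (limma, 0% of all pairs at both), with 8 unadjusted p under 0.05 at partial hepatectomy (10.96%, against 6.94% of all pairs) and 2 at terminal euthanasia (2.74%, against 4.38%). Pde4d changed by -0.98 ± 0.31 at partial hepatectomy (SE, adjusted p = 0.67). Its upstream signal was 123, 106, 74.8, 101 and 143 at 30 mg/kg, against 152, 124, 119, 158 and 177 at 3 mg/kg, and its downstream signal was 43.4, 48.4, 52.7, 43.2 and 56.5 at 30 mg/kg, against 20.4, 41.3, 21.7, 27.3 and 76.0 at 3 mg/kg. Dnmt3a, a de novo DNA methyltransferase with a short form from an internal promoter in mouse, changed by 0.49 (adjusted p = 0.71). Its mean signal was 82.2 upstream and 175 downstream at 30 mg/kg, against 67.1 upstream and 196 downstream at 3 mg/kg. Without the libraries with few empty regions Pde4d changed by -0.79 and Dnmt3a by 0.37. At terminal euthanasia Crem changed by -1.09 and Slc9a2 by 0.47 (adjusted p = 0.99 for both), and without such libraries Crem changed by -1.63 and Slc9a2 by 0.45.

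Thioacetamide, methapyrilene and acetaminophen each gave no call at either time (limma, 0% of all pairs in each of the 6 comparisons). Unadjusted p under 0.05 numbered 3, 4 and 5 pairs at partial hepatectomy and 1, 0 and 0 at terminal euthanasia for these agents in that order, against 3.91, 4.40 and 4.66% of all pairs at partial hepatectomy and 3.22, 3.22 and 2.89% at terminal euthanasia. The gene pairs' own shares were 4.11, 5.48 and 6.85% at partial hepatectomy and 1.37, 0 and 0% at terminal euthanasia. With thioacetamide at partial hepatectomy the uncertain pair of Cr1l, a complement regulator, changed by 1.40 ± 0.50 (SE, adjusted p = 1.00), its upstream mean being 19.1 and its downstream mean 9.04, against 11.7 upstream and 15.4 downstream in vehicle livers. With methapyrilene at that time Thra, a thyroid hormone receptor, changed by 0.48 ± 0.19 (adjusted p = 1.00), with 82.0 upstream and 157 downstream, against 55.7 upstream and 151 downstream in vehicle livers. With acetaminophen at that time the uncertain pair Scn3a changed by 2.07 (adjusted p = 0.99), and by 1.595 without the library with few empty regions.

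Tsc22d1 (-0.39) with thioacetamide, Wsb1, a ubiquitin ligase subunit (-0.61), with methapyrilene and Prol1 (-1.34, and -1.49 without that library) with acetaminophen had the smallest p in the other direction at partial hepatectomy. At terminal euthanasia Tbc1d14, a regulator of autophagy (-0.92), Krt83 (0.54), Speg, a muscle kinase (-0.63), Akap12 (0.33), Oxr1 (0.69) and Myl1, a myosin light chain (-0.42), had the smallest p of their direction, all with an adjusted p of 1.00. Without the libraries with few empty regions these changes were -1.08 for Tbc1d14, 0.33 for Krt83, -0.67 for Speg, 0.37 for Akap12, 0.66 for Oxr1 and -0.39 for Myl1.

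**Figure D5:**
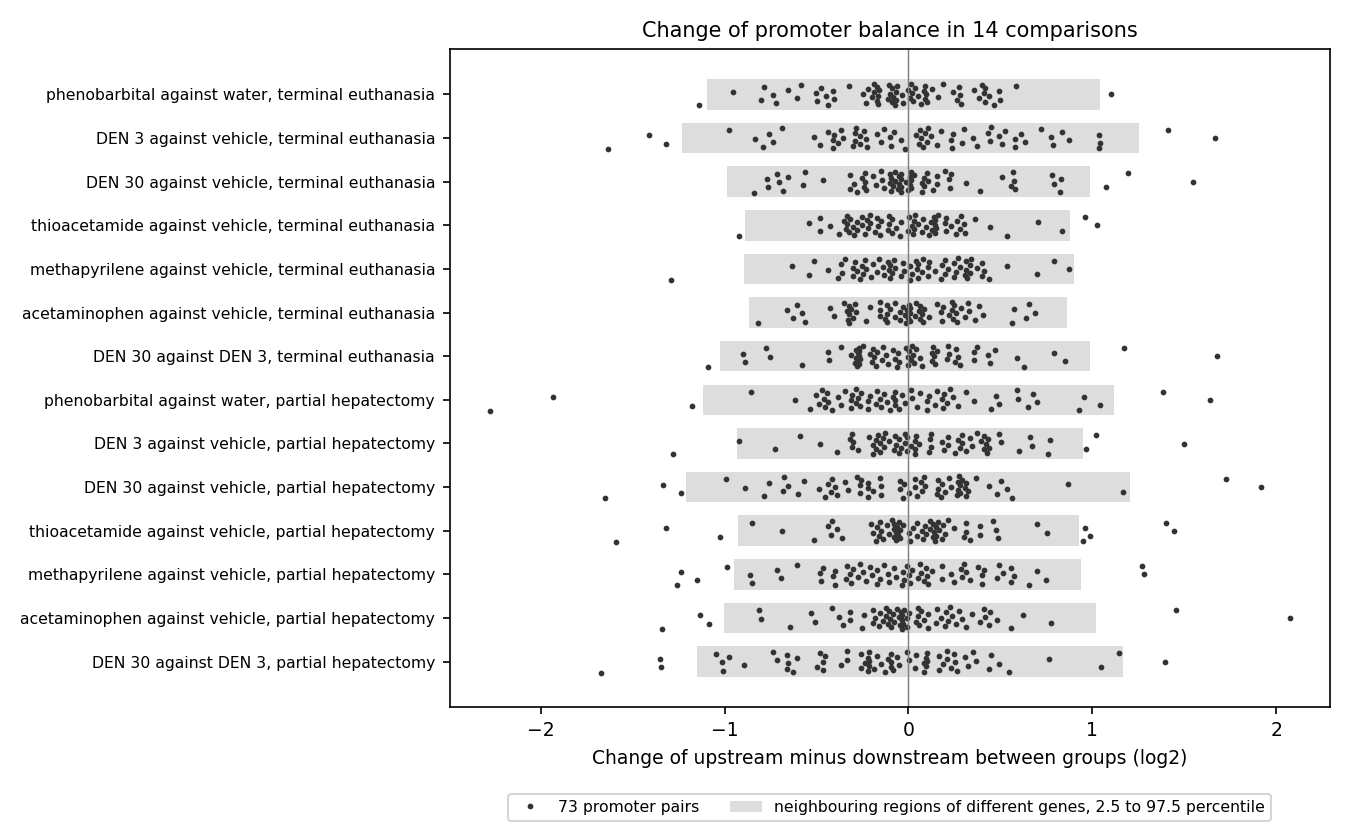
Change of upstream minus downstream between groups (log2, horizontal axis) in 7 comparisons at each of 2 times (rows), with a point for each of the 73 promoter pairs and a grey bar for the central range of neighbouring regions of different genes. The points lie about 0 in all 14 comparisons, between -2.28 and 2.07, and none passed the test.

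Each region was also tested by itself. Of 211 regions of these genes tested at partial hepatectomy and 213 at terminal euthanasia, limma and edgeR called none in any of the 14 comparisons, and limma called 0% of all regions in each, while edgeR called 1 of all regions in 2 of them. Unadjusted p under 0.05 in limma numbered between 2 and 23 regions. The most, 23, came with DEN at 30 mg/kg against vehicle at partial hepatectomy (10.9%, against 7.64% of all regions), with 18 higher and 5 lower. The downstream region of Stox2, a winged-helix gene, had the smallest p. Its values were 62.4, 70.4, 52.7, 83.3 and 43.1 in DEN livers, against 34.8, 41.1, 28.6, 25.1 and 37.6 in vehicle livers (0.87 ± 0.22, SE, adjusted p = 0.27). In the water livers they were 52.99, 54.4, 59.3, 72.6 and 89.1, so the phenobarbital change at that time was -0.95 (adjusted p = 0.56). The vehicle livers lay below every liver of both other groups, and both comparisons rest on those same 5 livers. The values 52.7 and 83.3 in DEN livers and 89.1 in water livers came from libraries with few empty regions. The changes without those libraries are not given here.

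At terminal euthanasia the downstream region of Ptprr had a lower mean in vehicle livers, but the groups overlapped. The vehicle livers had 88.2, 58.2, 90.2, 40.3 and 61.8, against 128, 82.0, 75.1, 130 and 99.0 in water livers (-0.62, adjusted p = 1.00). DEN livers at 30 mg/kg had 90.6, 84.7, 103, 112 and 105 (0.59 against vehicle, adjusted p = 1.00), and thioacetamide and methapyrilene gave 0.58 and 0.55. All of these share the vehicle livers. The vehicle value of 61.8 and the DEN value of 103 came from libraries with few empty regions, and the changes without such libraries are not given here.

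A peak list that the authors deposited sets DEN at 30 mg/kg against phenobarbital at times it calls 5w and 11w, taken here as partial hepatectomy and terminal euthanasia although the second region table is named 10W. The authors' deposited table held 27721 peaks higher and 1334 lower with DEN at 5w, and 2016 higher and 4252 lower at 11w. In the authors' deposited table, peaks higher with DEN at 5w overlapped 17 of the 222 regions by at least 1 bp (7.66%), against 882 of 15917 autosomal regions (5.54%). Peaks lower with DEN at 5w in the authors' deposited table overlapped 2 of the regions (0.901%, against 0.396%). At 11w the authors' deposited table had 1 region with a higher peak (0.450%, against 0.572%) and 1 with a lower peak (0.450%, against 0.936%). Of the 73 pairs, 5w peaks higher with DEN in the authors' deposited table overlapped both regions of 1 gene, Itsn1. These peaks overlapped the upstream region alone of 3 genes and the downstream region alone of 8. In 5 of these 11 single cases the region with the peak was also the one with more signal.

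In the upstream region of Itsn1 the authors' deposited table gave a peak of 19 reads and an enrichment factor of 8.99, which it assigns to an intron of Cryzl1. In the downstream region the authors' deposited table gave a peak of 16 reads and 5.05, which it assigns to an intron of Itsn1. The Crem peak in the authors' deposited table lay in the downstream region, with 22 reads and an enrichment factor of 6.94. For St6gal1 the authors' deposited table gave a downstream peak of 27 reads and 12.8, and for the second region of Shank2 a peak of 20 reads and 18.9. Zmynd11 and Myl1 held the peaks lower with DEN at 5w in the authors' deposited table, with 19 reads and 5.02 in the upstream region of Zmynd11 and 34 reads and 8.98 in the downstream region of Myl1. The same region of Myl1 also held a peak of 18 reads higher with DEN at 5w in the authors' deposited table, so its peaks pointed both ways. These are the authors' own values per peak, and the sources used here do not say whether libraries were pooled. At partial hepatectomy the DEN libraries numbered 43 and 44 had few empty regions, and no vehicle library did. Their part in the peaks was not tested.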

How the data were processed

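The deposited files give 1 signal value for each library and region, in 1 table for each time. Per the file headers the columns are the 70 libraries, and the deposited signal is a whole read number times 50 M divided by a whole-number total of the library (42.1 to 56.6 M). The sources used here do not say what that total counts, nor name the aligner or the genome build. Dividing by the worth of 1 read gave whole reads for 100% of the values above the placeholder of 0.01, within a tolerance of 0.01. The library numbers 61 to 70 carry the same totals as 1 to 10, so 20 libraries share a total. The authors' deposited peak list holds read counts per peak for the stronger of both library sets, and an enrichment factor, a ratio between the sets. Samples were grouped by titles and sample labels.

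Signal was analysed as log2(signal + 1), which understates changes of low regions. For each library the log2 signal of the downstream region was subtracted from that of the upstream region. limma 3.58.1 in R 4.3.3, with a variance trend and 1 mean per group, was fitted on all 15481 pairs in which a region had a signal of at least 10 in 5 or more libraries. These were the gene pairs and 15385 pairs of consecutive regions of different genes. Benjamini-Hochberg adjustment ran over all of them and 0.05 was the threshold. Single regions were fitted in the same way at each time, with edgeR 4.0.16 (quasi-likelihood) on the recovered reads as a second tool. Labels do not say that replicate numbers pair livers, and p-values measure the spread between these samples. With 5 livers a group, the fits share 1 estimate of the spread over groups. The fits were tested on simulated reads for DEN at 30 mg/kg against vehicle at partial hepatectomy. Of 100 changes of 1 (log2), the pair fit recovered 17 and the region fit 59. Of 100 changes of 2 (log2), they recovered 90 and 98. A comparison without calls therefore does not show that changes of 1 (log2) in promoter balance were absent. In the same test the pair fit made 229 calls, of which 19 were of unchanged pairs. The region fit made 160 calls, of which 3 were of unchanged regions. The dispersion of the simulated reads was 0.0609. Whether it matches the real spread, including that of the libraries with few empty regions, was not tested, so real recovery may be lower.

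Genes were named by rule: up to 10 nonoverlapping pairs in each direction with the largest called difference and a higher region above the median of all tested regions, members of the alternative promoter list, the pair with the smallest p per direction in each comparison without calls, the 5 genes with most regions, the 3 highest and 3 lowest correlations, and up to 3 members of each other list. Stox2, Nat1, Cav1, the region result of Ptprr and the genes of the peak list were chosen after their values were seen, and Bcl2l1 for its correlation. Some results that the rule names are not reported here. The genes and lists were chosen with earlier results of these data known. RefSeq genes were matched through transcripts for 95 of the 96 genes, 8 of them under another symbol.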

Additional observations from a re-analysis of the deposited data

Results flagged for a closer look

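In the vehicle group given phenobarbital, at terminal euthanasia, the upstream minus downstream difference of Zmynd11 was -0.15 in 1 library, while the other 4 lay between -3.07 and -2.57. The gap to the nearest library took 0.83 of the whole range, which marks the library as far from the others. It is one of the 9 libraries in which under 1% of regions had no read, and its part in this value was not tested. In all, 53 groups of 5 values were looked at in this way, and chance alone marks about 1 group in 20. Opposite moves of every library at the 2 times were looked for in 511 combinations of a gene pair and a comparison, and 0 were found.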

How the results depend on the processing

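The count of 69 nonoverlapping pairs called between upstream and downstream regions was 69 with a pseudocount of 10, without the filter on low values, on recovered reads and with the block of library numbers as a covariate. It was 70 without the 9 libraries with few empty regions, 68 to 70 when each replicate number was left out in turn, 57 of the 61 pairs at least 10000 bp apart, and 61 without genes of a repeated transcript, a setting chosen after seeing the data. With the replicate number as a block the count was 69 as well, and the block changed no other call. In none of 28 comparisons did every same-numbered pair of libraries deviate together (correlation over 0.1 in 0 of them). The numbers were therefore not taken as a pairing. Yet 18 of 35 libraries correlated best with their own number across the times, out of 5 numbers each. Whether the numbers pair livers is thus not settled, and the main fits treat the 70 libraries as separate livers. Every count of calls in the 14 comparisons, over all groups and between the times was 0 under each setting run, including quantile normalization of regions. The difference of Crem, -0.06, lay between -0.127 and 0.0173 when each replicate number was left out, with 0.0165 without replicate 1 and 0.0173 without replicate 2, and the cause was not tested. Pairs with few reads in a region set the limit here, since 1 read then moves the log2 value widely.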
